A study of Mus musculus with 4 samples.

Results

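The 10 genes described here decide, or mark, whether a developing T cell becomes a CD4 or a CD8 cell. They were taken by name, as the coreceptor genes Cd4, Cd8a and Cd8b1 and the transcription factor genes Zbtb7b, Gata3, Tox, Runx3, Runx1, Patz1 and Bcl11b, out of 35275 Ensembl genes in the deposited count table. All 10 were found and all 10 reached, in 1 library or more, 2 CPM (counts scaled to the library total), as did 12490 genes in all.

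RNA was sequenced from thymocytes of C57BL/6 mice aged 6 to 8 weeks, untreated, in 4 libraries that cross 2 genotypes with 2 sorted populations, with 1 library each. The genotypes were Uba3ΔT, labelled Uba3-/- and called KO here, and Uba3F/F, labelled wild type and called WT. The protein of Uba3 is part of the enzyme needed before NEDD8, a relative of ubiquitin, can be joined to cullins. What drives the deletion in T cells, and how many mice gave each library, is not given in the sources used here. Cells were sorted by flow cytometry for TCRβ and CD69, as group 3 (TCRβhi CD69hi) and the earlier group 2 (TCRβint CD69hi). The tables held 9689339 counts for KO group 3, 8043077 for WT group 3, 8964120 for KO group 2 and 10299863 for WT group 2. The titles of the samples were used for the groups, since the labels' cell type field gives both KO libraries as group 3 and both WT libraries as group 2. Ccr7, which mature thymocytes use to enter the medulla, stood at 599 CPM in KO group 3 and 592 CPM in WT group 3, against 160 CPM in KO group 2 and 195 CPM in WT group 2, an order that follows the titles. Counts of Uba3 itself ran against the labels, with 856 in the KO-labelled and 356 in the WT library of group 3, and 647 in the KO-labelled and 453 in the WT library of group 2. A count over the whole gene does not tell deleted exons from kept ones, so each genotype difference below is one between libraries by label. Genes with at least 1 count numbered 20521 in KO group 3 and 23325 in WT group 3, against 23925 in KO group 2 and 20440 in WT group 2. That crossing touches every difference between the sorted groups in the genotype ratio, and its part in them was not tested. Markers of T cells were high throughout, with Cd3e between 1118 and 1316 CPM and the 6 listed markers summing to between 9426 and 10413 CPM.

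A thymocyte in the middle of selection carries both coreceptors, CD4 and CD8, and keeps only one of them when it matures. Cells whose receptor recognises MHC class II switch on ThPOK, the protein of Zbtb7b, with the help of GATA3 and TOX, and become CD4 helper cells. Cells whose receptor recognises MHC class I switch on RUNX3, which silences Cd4 and represses Zbtb7b, and become CD8 cytotoxic cells. RUNX1 acts on the Cd4 silencer at earlier stages, MAZR (the protein of Patz1) represses Cd8 and Zbtb7b, and BCL11B keeps cells committed to the T cell fate. In these bulk libraries a lower share of cells of one kind and less RNA per cell cannot be told apart.

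Set per gene length, the coreceptors stood highest and the 2 lineage-defining factors lowest. By deposited RPKM (counts scaled to gene length and library size), the level of Cd8b1 was the highest of the 10 in each library, at 1670.3 in KO group 3 and 2373 in WT group 3, and at 2556 in KO group 2 and 2768 in WT group 2. Zbtb7b was the lowest in each, with levels of 10.2 RPKM in KO group 3 and 10.03 RPKM in WT group 3, and of 3.41 RPKM in KO group 2 and 2.38 RPKM in WT group 2. Runx3 was next to last in each, at a level of 31.3 RPKM in KO group 3 and 16.2 RPKM in WT group 3, and of 19.3 RPKM in KO group 2 and 15.99 RPKM in WT group 2. Levels of Gata3, Tox, Patz1 and Bcl11b lay between 95.4 and 200.4 RPKM, and those of Runx1 between 39.8 and 46.0 RPKM. The order of the 10 was the same in KO and WT group 2. In group 3 it changed in 1 place for each genotype: in KO, Cd4 stood above Cd8a, and in WT, Bcl11b stood above Gata3. With 1 library a group, the spread between mice is unknown and neighbours as close as these cannot be separated. The order also rests on the gene lengths implied by the deposited RPKM, which were taken as they are. They were 1313 bp for Cd4, 3115 bp for Cd8a, 915 bp for Gata3 and 4507 bp for Bcl11b. By CPM, which leaves out length, Cd8a stood above Cd4 and Bcl11b above Gata3 in each library.

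**Figure D1:**
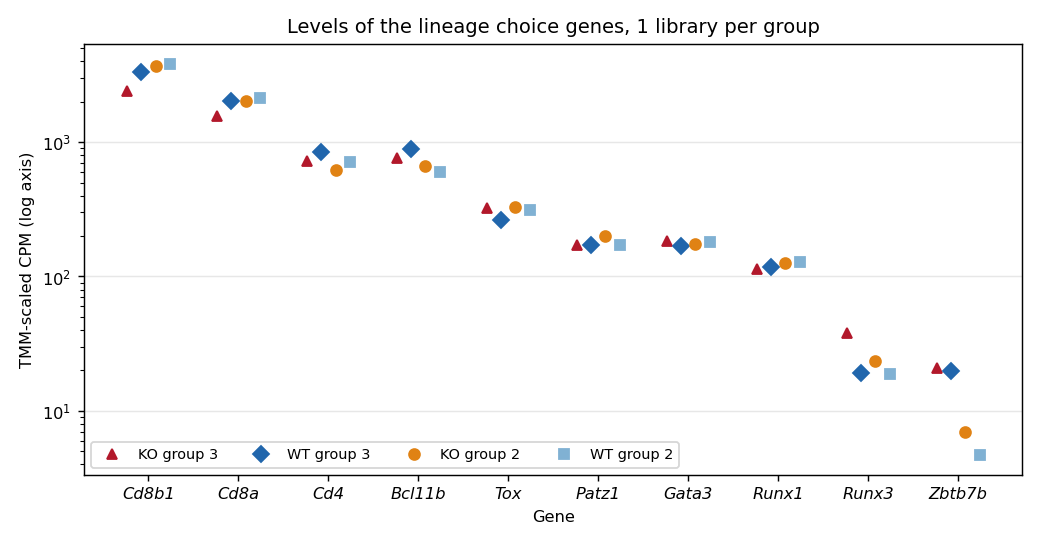
Level of each of the 10 genes in each library, as CPM scaled with TMM factors on a log axis, 1 point per library (KO and WT group 3, then KO and WT group 2). Zbtb7b is at about 20 CPM in both group 3 libraries and under 7 CPM in both group 2 libraries, Runx3 stands out in KO group 3 alone at 37.9 CPM, and Cd8a and Cd8b1 are lowest in KO group 3.

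Zbtb7b (ENSMUSG00000028042, chromosome 3, 89377644 to 89394776, minus strand, mm10) encodes ThPOK, the factor that commits cells to the CD4 lineage. It had 197 counts in KO group 3 and 161 in WT group 3, against 61 in KO group 2 and 49 in WT group 2, or 20.7 and 19.7 CPM in KO and WT group 3 and 6.91 and 4.67 CPM in KO and WT group 2. Both libraries of the later population were thus well above both of the earlier one. Group 3 held 2.99 times the group 2 level in KO (95% counting interval 2.24 to 4.06) and 4.23 times in WT (3.05 to 5.95). The step was the only one of the 10 members' differences between 2 libraries past 2-fold with an interval excluding 1, in KO as in WT. Of all genes measured, 7.84% in KO and 7.08% in WT were past that limit in either direction. Among the 9101 genes that reached 10 CPM in some library, the shares were 2.19% and 2.05%. Of these genes, 0.396% in KO and 0.088% in WT rose at least as far as Zbtb7b, itself included. Between genotypes the ratio was 1.05 (0.846 to 1.30) in group 3 and 1.48 (0.9995 to 2.20) in group 2, and the ratio of these 2 ratios was 0.708 with an interval of 0.461 to 1.09. Gm15417, an antisense gene, overlaps Zbtb7b over 2927 bp, and reads of the 2 cannot be told apart where the strand is not recorded. It had 52 counts in KO group 3 and 13 in WT group 3, and 6 in KO group 2 and 8 in WT group 2. With its counts added, a choice made after seeing the data, group 3 held 3.45 times the group 2 level in KO and 3.93 times in WT. KO over WT in group 3 was then 1.23, with an interval of 1.006 to 1.496 that excludes 1, and in group 2 it was 1.40 (0.967 to 2.03).

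The promoters of Zbtb7b and Runx3 are shown because ThPOK and the RUNX factors act on each other's genes; RUNX words, TGTGGT or TGCGGT on either strand, are in capitals. RefSeq (GRCm38.p6, the build of mm10) gave 11 promoters, each 250 bases before to 50 after a transcript start, for 7 of the 10 genes. Those of Cd4, Cd8b1 and Tox are not shown. Each is printed 5′ to 3′ on the strand of its gene, the Zbtb7b pair from chr3:89393329-89393628 and chr3:89387622-89387921 on the minus strand and the Runx3 pair from chr4:135120395-135120694 and chr4:135152295-135152594 on the plus strand.
Zbtb7b upstream start: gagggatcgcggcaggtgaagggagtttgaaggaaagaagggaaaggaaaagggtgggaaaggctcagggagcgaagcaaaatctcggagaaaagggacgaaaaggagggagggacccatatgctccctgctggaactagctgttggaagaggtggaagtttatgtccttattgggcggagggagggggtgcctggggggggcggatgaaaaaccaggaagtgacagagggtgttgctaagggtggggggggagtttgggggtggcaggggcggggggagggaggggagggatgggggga
Zbtb7b downstream start: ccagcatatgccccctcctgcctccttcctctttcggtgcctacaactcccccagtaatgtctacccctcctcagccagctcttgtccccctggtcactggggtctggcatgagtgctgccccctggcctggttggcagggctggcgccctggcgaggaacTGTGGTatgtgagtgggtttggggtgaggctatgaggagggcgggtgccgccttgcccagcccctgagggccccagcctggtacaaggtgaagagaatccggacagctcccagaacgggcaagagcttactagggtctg
Runx3 distal start: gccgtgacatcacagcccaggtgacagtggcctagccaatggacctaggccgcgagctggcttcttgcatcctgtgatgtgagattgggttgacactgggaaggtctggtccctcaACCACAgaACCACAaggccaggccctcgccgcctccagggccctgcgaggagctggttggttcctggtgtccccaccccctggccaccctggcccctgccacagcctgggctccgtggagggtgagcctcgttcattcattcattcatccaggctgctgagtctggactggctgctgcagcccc
Runx3 proximal start: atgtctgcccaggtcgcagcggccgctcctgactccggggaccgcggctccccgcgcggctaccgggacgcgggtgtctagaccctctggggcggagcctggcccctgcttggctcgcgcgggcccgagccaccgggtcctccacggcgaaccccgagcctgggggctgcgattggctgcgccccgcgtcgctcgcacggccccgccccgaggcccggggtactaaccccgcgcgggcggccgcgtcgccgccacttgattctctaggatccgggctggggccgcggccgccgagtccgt
The downstream promoter of Zbtb7b held 1 RUNX word, beginning at position -89 (the start is 1), and its upstream promoter held none. The distal promoter of Runx3 held 2, beginning at positions -134 and -126, and its proximal promoter held none. Over all members 4 of the 11 promoters held a RUNX word, 2 a GATA word (AGATAA or AGATAG, or else TGATAA or TGATAG, on either strand) and 9 an E-box (CANNTG, which reads the same on both strands). Of all 32851 promoters of that length in the table, 22.4% held a RUNX word, 29.8% a GATA word and 72.3% an E-box. Words of different motifs may overlap, and a match describes the letters only.

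Runx3 (ENSMUSG00000070691, chromosome 4, 135120652 to 135177990, plus strand) encodes the factor that sets the CD8 lineage. It had 361 counts in KO group 3 and 155 in WT group 3, and 206 in KO group 2 and 196 in WT group 2, or 37.9 and 19.0 CPM in KO and WT group 3 and 23.3 and 18.7 CPM in KO and WT group 2. The KO group 3 library stood apart from the other 3. In group 3 KO held 1.99 times the WT level (1.65 to 2.42), just short of the 2-fold limit, and of the 9101 genes that reached 10 CPM in some library 1.40% were higher in KO by as much. With DESeq2's size factors it passed that limit, as the single member to do so between genotypes in group 3. In group 2 the ratio was 1.25 (1.02 to 1.53). The genotype ratio in group 3 was 1.60 times that in group 2, with a counting interval of 1.22 to 2.09 that is not a test over mice. Seen along the step, Runx3 in group 3 held 1.62 times its group 2 level in KO (1.37 to 1.94) and 1.02 times in WT (0.819 to 1.26; just under 1 with DESeq2's size factors). Gm16224, antisense to Runx3, had at most 3 counts in any library. NK cells also carry Runx3, and their 3 markers together stood at 8.19 CPM in KO group 3 and 8.22 CPM in WT group 3, and at 10.8 CPM in KO group 2 and 8.19 CPM in WT group 2. They did not move alike. Ncr1 had 20 counts in KO group 3 and 3 in WT group 3, and 28 in KO group 2 and 0 in WT group 2. Klrb1c had 23 counts in KO group 3 and 30 in WT group 3, and 13 in KO group 2 and 70 in WT group 2. Klrk1 had 35 counts in KO group 3 and 34 in WT group 3, and 54 in KO group 2 and 16 in WT group 2. The part of NK cells in the Runx3 difference was not tested.

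Runx1 (ENSMUSG00000022952, chromosome 16, 92601466 to 92826149, minus strand), the relative that works at earlier stages, stayed in a narrow range. It had 1091 counts in KO group 3 and 963 in WT group 3, and 1105 in KO group 2 and 1338 in WT group 2, or 115 and 118 CPM in KO and WT group 3 and 125 and 127 CPM in KO and WT group 2. Its genotype ratios were 0.970 in group 3 (0.889 to 1.06) and 0.982 in group 2 (0.906 to 1.06), and group 3 held 0.915 times the group 2 level in KO (0.841 to 0.996) and 0.927 times in WT (0.852 to 1.01). All 4 ratios lay under 1 with TMM scaling, with 3 of the 4 intervals including it, and with DESeq2's size factors that of the genotypes in group 3 lay just above it (log2 0.011). Its distal promoter (chr16:92826025-92826324, minus strand) is shown because it carries the same tandem of RUNX words as that of Runx3.
Runx1 distal start: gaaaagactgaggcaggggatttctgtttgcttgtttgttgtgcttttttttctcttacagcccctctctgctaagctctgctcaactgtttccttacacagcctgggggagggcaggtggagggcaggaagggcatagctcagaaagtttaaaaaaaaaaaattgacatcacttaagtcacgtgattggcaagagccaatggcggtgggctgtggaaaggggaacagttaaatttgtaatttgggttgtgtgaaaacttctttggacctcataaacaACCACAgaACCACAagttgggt
The RUNX words begin at positions 29 and 37 from the start, and the longest stretch that the distal promoters of Runx1 and Runx3 share is 18 bases that hold both words, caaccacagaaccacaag.

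Cd4 stood higher, and both CD8 genes lower, in group 3 than in group 2, in KO as in WT. Cd4 (ENSMUSG00000023274, chromosome 6, 124864692 to 124888221, minus strand) stood at 726 CPM in KO group 3 and 839 CPM in WT group 3, and at 624 CPM in KO group 2 and 710.1 CPM in WT group 2, from 5507 to 7453 counts. Its level was higher in group 3 in both genotypes, 1.16 times in KO (1.12 to 1.21) and 1.18 times in WT (1.14 to 1.22), and lower in KO in both sorted groups, 0.866 of WT in group 3 (0.837 to 0.895) and 0.878 in group 2 (0.848 to 0.910). Its genotype ratio differed between the sorted groups by a factor of 0.985 (0.939 to 1.03).

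Cd8a and Cd8b1 encode the α and β chains of CD8, which pair on thymocytes. Cd8a (ENSMUSG00000053977, chromosome 6, 71373427 to 71379173, plus strand) stood at 1579.5 CPM in KO group 3 and 2034 CPM in WT group 3, and at 2021 CPM in KO group 2 and 2149.97 CPM in WT group 2. Cd8b1 (ENSMUSG00000053044, chromosome 6, 71322788 to 71337494, plus strand) stood at 2409.98 CPM in KO group 3 and 3319.7 CPM in WT group 3, and at 3681 CPM in KO group 2 and 3851 CPM in WT group 2. For both chains KO group 3 was the lowest library and WT group 2 the highest. In group 3, KO held 0.777 of the WT level of Cd8a (0.760 to 0.794) and 0.726 of that of Cd8b1 (0.713 to 0.739). In group 2 the ratios were nearer to 1, at 0.940 for Cd8a (0.921 to 0.958) and 0.956 for Cd8b1 (0.942 to 0.970). Along the step Cd8b1 stood at 0.655 of its group 2 level in KO (0.644 to 0.666) and 0.862 in WT (0.849 to 0.875), and Cd8a at 0.782 in KO (0.765 to 0.799) and 0.946 in WT (0.927 to 0.965). These intervals are narrow because the lowest count behind them is 15041, and they leave out all variation between mice. Each of these ratios of Cd8a and Cd8b1 moved beyond its interval with another scaling. All 3 coreceptor genes lie on chromosome 6, as does the targeted Uba3, at 27.7 Mb from Cd4, 25.8 Mb from Cd8a and 25.8 Mb from Cd8b1.

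The promoter of Cd8a (chr6:71373177-71373476, plus strand) is shown as that of the coreceptor gene with an entry in the table.
Cd8a start: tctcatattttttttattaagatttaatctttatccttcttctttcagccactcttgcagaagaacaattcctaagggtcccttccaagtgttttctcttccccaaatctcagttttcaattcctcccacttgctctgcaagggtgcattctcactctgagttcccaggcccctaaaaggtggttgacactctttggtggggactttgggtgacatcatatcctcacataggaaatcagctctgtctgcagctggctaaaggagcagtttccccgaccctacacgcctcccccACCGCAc
Its only RUNX word, read on the other strand, begins at position 44 from the start, and it held 3 E-boxes and no GATA word.

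**Figure D2:**
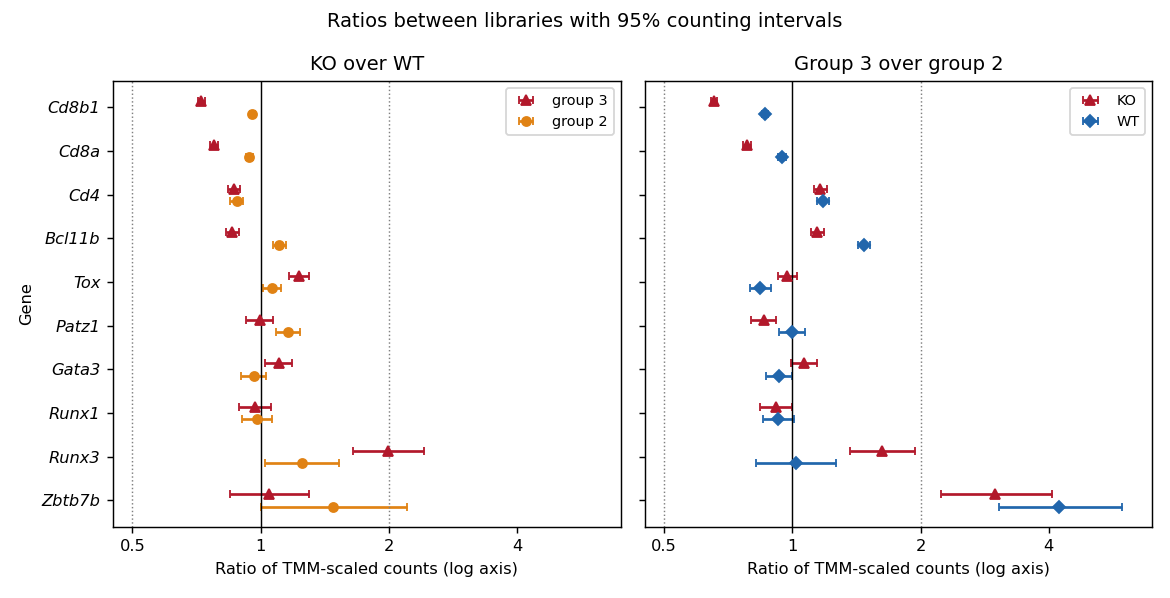
Ratios between single libraries for the 10 genes on a log axis, with 95% counting intervals (exact conditional binomial); KO over WT on the left, in group 3 and group 2, and group 3 over group 2 on the right, in KO and WT. Dotted lines mark 2-fold: Zbtb7b lies beyond it along the step in both genotypes, and Runx3 reaches 1.99 for KO over WT in group 3.

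Gata3 and Tox, which act ahead of Zbtb7b on the way to the CD4 fate, differed by less than 1.5-fold between any 2 libraries. Gata3 (ENSMUSG00000015619, chromosome 2, 9857078 to 9890034, minus strand) stood at 185 CPM in KO group 3 and 168 CPM in WT group 3, and at 173 CPM in KO group 2 and 179.97 CPM in WT group 2. These values span a factor of 1.10, the narrowest of the 10 genes. Its genotype ratio was 1.10 in group 3 (1.03 to 1.18) and 0.963 in group 2 (0.900 to 1.03). Tox (ENSMUSG00000041272, chromosome 4, 6686353 to 6991557, minus strand) stood at 322 CPM in KO group 3 and 262 CPM in WT group 3, and at 331 CPM in KO group 2 and 311 CPM in WT group 2. WT group 3 was the lowest library for Tox: KO held 1.23 times its level there (1.16 to 1.30) and 1.06 times in group 2 (1.01 to 1.12). Along the step the ratio was 0.972 in KO (0.924 to 1.02; just above 1 with DESeq2's size factors) and 0.842 in WT (0.797 to 0.889). Gm11802, antisense to Tox, had 19 counts in KO group 3 and 8 in WT group 3, and 9 in KO group 2 and 36 in WT group 2, beside at least 2134 for Tox.

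Patz1 and Bcl11b, the other 2 factors, differed in pattern. Patz1 (ENSMUSG00000020453, chromosome 11, 3288874 to 3309083, plus strand) stood at 171 CPM in KO group 3 and 172 CPM in WT group 3, and at 200.1 CPM in KO group 2 and 173 CPM in WT group 2. Only KO group 2 stood apart, with a genotype ratio of 1.16 (1.08 to 1.24) there and 0.994 (0.925 to 1.07; just above 1 with DESeq2's size factors) in group 3. Bcl11b (ENSMUSG00000048251, chromosome 12, 107910403 to 108003602, minus strand) stood at 764 CPM in KO group 3 and 889.6 CPM in WT group 3, and at 668 CPM in KO group 2 and 604 CPM in WT group 2. It was higher in group 3 in both genotypes, by 1.14 times in KO (1.10 to 1.18) and 1.47 times in WT (1.42 to 1.52). The genotype ratios went opposite ways, 0.858 in group 3 (0.831 to 0.887) and 1.11 in group 2 (1.07 to 1.15). KO group 2 and WT group 3, where Bcl11b was higher than in the other genotype, are also the 2 libraries with the most genes counted.

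Set against all genes, the members as a list did not stand far from the middle. No member was past 2-fold between genotypes, where 7.77% of the 12490 genes were in group 3 and 8.9% in group 2 in either direction. Each member reached 10 CPM in some library, and among the 9101 genes that did so these shares were 2.26% and 3.07%. At 1.5-fold, Runx3 was past it in group 3 (17% of all genes were) and no member in group 2 (19.9%), while 3 members were past it along the step in KO, Zbtb7b and Runx3 higher and Cd8b1 lower (16.6%), and Zbtb7b alone in WT (16.2%). Among genes with 10 CPM, the 1.5-fold shares were 10.8% and 12.9% between genotypes in group 3 and group 2. Along the step they were 9.69% in KO and 10.1% in WT. The genotype ratio differed 2-fold between the sorted groups for no member and for 13% of all genes. It differed 1.5-fold for Runx3 alone and for 21.8% of all genes. Among genes with 10 CPM these shares were 3.81% and 15%. The median log2 ratio of KO over WT for the 10 was -0.03 in group 3 and 0.03 in group 2, beside -0.01 and 0.00 over all genes tested. For group 3 over group 2 the median was 0.03 in KO and -0.04 in WT, beside -0.01 and 0.00 over all genes.

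A model of sorted group plus genotype over the 4 libraries, fitted with edgeR's quasi-likelihood test on all 12490 genes, gave the effects shared by both pairs. Its error comes from how effects differ between pairs, not from variation between mice. With 1 residual degree of freedom it is largely shared across all genes, so it is not each gene's own disagreement between pairs. For the step, 2 of the 10 members passed an adjusted p of 0.05, 1 higher and 1 lower, where 2.21% of all genes were called higher and 1.14% lower, 3.35% in all. Zbtb7b rose by 1.82 on the log2 scale (SE 0.29; edgeR, adjusted p 5.12e-08), and was the member that DESeq2 called too (adjusted p 0.0077), among 1.11% of all genes. Cd8b1 fell by 0.41 (SE 0.12; edgeR, adjusted p 0.0152) and missed the threshold with DESeq2 at an adjusted p of 0.167, with robust shrinkage and with edgeR's own filter. With 1 library left out and genotype dropped from the model, neither passed. Bcl11b (0.38, SE 0.13), Runx3 (0.37, SE 0.22) and Cd4 (0.23, SE 0.13) had fitted values above 0 and Cd8a (-0.22, SE 0.12) one below it, none called. For genotype no member passed with edgeR, DESeq2 or limma-voom, where edgeR called 4.82% of all genes and DESeq2 1.43%. At an unadjusted p of 0.05, edgeR and limma-voom each had 2 members, Runx3 and Cd8b1, and DESeq2 had 0, where 13.2%, 11.9% and 6.45% of all genes lay under it with edgeR, limma-voom and DESeq2. The fitted genotype effects (log2) were 0.66 for Runx3 (SE 0.22; edgeR, adjusted p 0.0627; 0.31 without KO group 3, with the other term dropped), -0.26 for Cd8b1 (SE 0.12), -0.23 for Cd8a (SE 0.12) and -0.20 for Cd4 (SE 0.13).

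**Figure D3:**
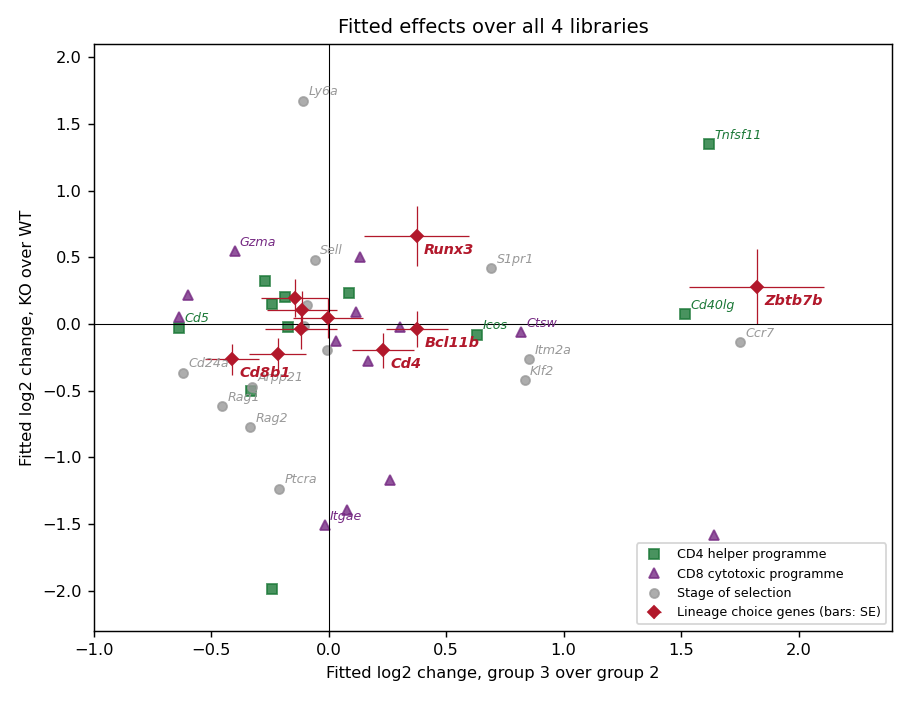
Fitted log2 effects over the 4 libraries, the step (group 3 over group 2) on the horizontal axis and genotype (KO over WT) on the vertical axis, for the 10 lineage choice genes with standard errors and for genes of 3 lists, 1 point per gene; list genes that edgeR called for either effect are named, as are 5 of the 10. Zbtb7b lies at 1.82 along the step, near Cd40lg and Ccr7, while Runx3 is the highest of the 10 for genotype at 0.66.

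Ratios of 2 genes within a library cancel its scaling. Their levels rest on the gene lengths implied by the deposited RPKM, which cancel in the changes between libraries. Per length, Cd4 over Cd8a stood at 1.09 in KO group 3 and 0.978 in WT group 3, and at 0.732 in KO group 2 and 0.784 in WT group 2. It was higher in group 3 by 1.49 times in KO (1.43 to 1.55) and 1.25 times in WT (1.20 to 1.30), and between genotypes by 1.11 times in group 3 (1.07 to 1.16), against 0.935 times in group 2 (0.898 to 0.973). Cd8b1 over Cd8a stood at 3.35 in KO group 3 and 3.59 in WT group 3, and at 4.002 in KO group 2 and 3.94 in WT group 2, so that β chain RNA was lower relative to α chain RNA in group 3, at 0.838 of the group 2 ratio in KO (0.815 to 0.861) and 0.911 in WT (0.888 to 0.934).

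Zbtb7b over Runx3, the factors of the 2 fates, stood at 0.326 in KO group 3 and 0.620 in WT group 3, and at 0.177 in KO group 2 and 0.149 in WT group 2. Along the step this ratio was 1.84 times higher in KO (1.32 to 2.57) and 4.15 times in WT (2.83 to 6.09). In group 3 it stood in KO at 0.525 of WT (0.397 to 0.696), and in group 2 at 1.18 times WT with an interval that includes 1 (0.775 to 1.81). These counts leave out Gm15417. Runx3 over Runx1 stood at 0.786 in KO group 3 and 0.382 in WT group 3, and at 0.443 in KO group 2 and 0.348 in WT group 2, 2.06 times higher in KO in group 3 (1.67 to 2.53) and 1.27 times in group 2 (1.03 to 1.57). Of the 16 changes computed for the 4 ratios, 5 were 1.5-fold or more. All 5 were of Zbtb7b over Runx3 or of Runx3 over Runx1, which share Runx3, so they are not separate results. The share among other pairs of genes was not computed.

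**Figure D4:**
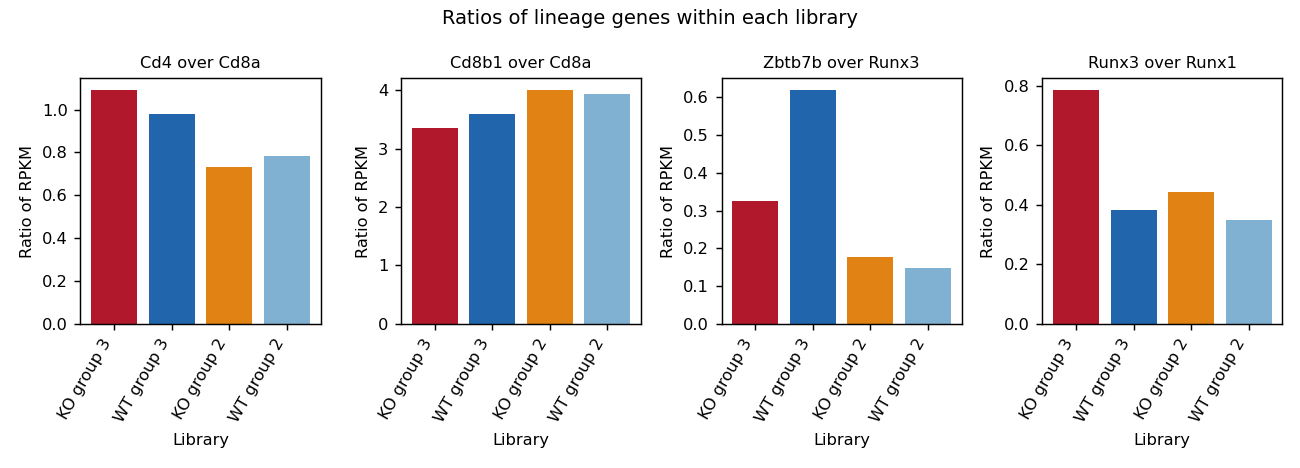
Ratios of RPKM of 2 genes within each library, 1 bar per library (KO and WT group 3, then KO and WT group 2), on axes that start at 0. Cd4 over Cd8a is higher in both group 3 libraries, Zbtb7b over Runx3 is highest in WT group 3 at 0.620, and Runx3 over Runx1 is highest in KO group 3 at 0.786.

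Genes that carry out the CD4 helper programme were read beside the members. Of 11 such genes edgeR called 3 higher and 1 lower along the step, and 1 higher for genotype. Over all genes it called 2.21% higher and 1.14% lower along the step, and 2.95% higher and 1.87% lower for genotype. Cd40lg, the ligand with which helper cells activate B cells, rose along the step by 1.52 (log2, SE 0.19; edgeR, adjusted p 2.08e-12), and stood at 74.5 CPM in KO group 3 and 58.9 CPM in WT group 3, and at 21.3 CPM in KO group 2 and 24.96 CPM in WT group 2. Tnfsf11, which encodes RANKL, a signal to the medullary epithelium, rose along the step by 1.62 (SE 0.21) and in KO by 1.35 (SE 0.21; edgeR, adjusted p 3.76e-08). Icos, a costimulatory receptor, rose by 0.63 (SE 0.16), and Cd5, an inhibitor of receptor signalling, fell by 0.64 (SE 0.14), both along the step. DESeq2 kept Cd40lg, Tnfsf11 and Cd5 and not Icos.

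Genes of the CD8 cytotoxic programme, to which Runx3 belongs as a regulator, were read in the same way. Of 15 genes 13 were measured, and edgeR called 1 higher and 1 lower for genotype (2.95% and 1.87% of all genes) and 1 higher along the step (2.21%). In group 3, 0 were higher in KO past 2-fold, where 2.17% of all genes were. Past 2-fold lower were 3 (Itgae, Gzmb and Crtam), where 5.6% of all genes were. KO and WT group 3 had 37 and 98 counts of Itgae, 22 and 70 of Gzmb, and 13 and 41 of Crtam. KO group 3 also had fewer genes with a count than WT group 3, and the part of this was not tested. The median log2 ratio of KO over WT for the 13 genes was -0.15 in group 3, beside -0.01 over all genes. Itgae, the integrin chain CD103 that RUNX3 is known to activate, stood at 3.89 CPM in KO group 3 and 12.02 CPM in WT group 3, and at 4.30 CPM in KO group 2 and 11.3 CPM in WT group 2. It fell in KO by 1.51 (log2, SE 0.37; edgeR, adjusted p 0.00268), a call that DESeq2 did not make (adjusted p 0.242). Gzma, a granzyme, rose in KO by 0.55 (SE 0.16), which DESeq2 did not call either, and Ctsw, a cathepsin of cytotoxic cells, rose along the step by 0.82 (SE 0.16).

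Among 15 other factors of lineage choice edgeR called 2 higher and 3 lower along the step (2.21% and 1.14% of all genes), and 1 higher for genotype (2.95%). Id2, an inhibitor of E proteins, rose along the step by 0.81 (SE 0.15). Myb, which supports Gata3 expression, fell by 0.67 (SE 0.14), and Bcl6 fell by 0.78 (SE 0.19) and Ikzf1 by 0.56 (SE 0.14). Irf1, an interferon-linked factor, rose along the step by 0.63 (SE 0.15) and in KO by 0.64 (SE 0.15). DESeq2 made these calls except that for Bcl6. Tcf7 and Lef1, factors that help to switch on Zbtb7b, were not called for either effect, at -0.10 (SE 0.11) and -0.04 (SE 0.13) along the step.

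Of the 12 partners and corepressors of RUNX and ThPOK, 1 fell along the step (1.14% of all genes) and 1 fell in KO (1.87%). Chd4, a chromatin remodeller, fell along the step by 0.56 (SE 0.16), and Satb1, an organiser of chromatin in thymocytes, fell in KO by 0.36 (SE 0.11; edgeR, adjusted p 0.0315); DESeq2 called neither. Cbfb, the subunit that RUNX factors bind to work, stood between 122 and 151 CPM, and Zbtb7a, the nearest relative of Zbtb7b, between 58.0 and 85.4 CPM, neither called. Of the 11 family relatives 7 were measured, and Tox2, a relative of Tox, was the only one called. It rose in KO by 1.32 (SE 0.21), where 2.95% of all genes were called higher. Tox2 had 41.2 CPM in KO group 3 and 13.4 CPM in WT group 3, and 49.4 CPM in KO group 2 and 24.0 CPM in WT group 2. Runx2 stayed at or under 5.21 CPM.

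Coreceptors signal through the kinase LCK, and loss of that signal with IL-7 receptor signalling is part of the CD8 choice. Of 15 genes of this list 2 rose along the step (2.21% of all genes) and 3 rose in KO (2.95%). Il7r, the IL-7 receptor chain, rose along the step by 1.18 (SE 0.18; edgeR, adjusted p 8.05e-09), and the kinase gene Fyn rose along the step by 0.61 (SE 0.14) and in KO by 0.51 (SE 0.14). Lat, an adaptor of the receptor, rose in KO by 0.40 (SE 0.13) and Socs3, an inhibitor of cytokine signals, by 1.05 (SE 0.27), neither called by DESeq2. Lck itself stood between 3776 and 4068 CPM.

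Genes of the stage of selection were called for genotype as well as for the step. Of 14 such genes 4 rose and 1 fell along the step (2.21% and 1.14% of all genes), and 2 rose and 4 fell in KO (2.95% and 1.87%), among them Rag1 (-0.62, SE 0.15) and Ptcra (-1.24, SE 0.19), genes of immature thymocytes. Markers of other cells were low. Dendritic cell markers, whose cells can carry Cd4, Cd8a or Runx3, summed to 8.19 CPM in KO group 3 and 9.81 CPM in WT group 3, and to 12.7 CPM in KO group 2 and 5.72 CPM in WT group 2 over 6 genes, of which 3 were measured. Among them Clec9a had 0 counts in KO group 3 and 2 in WT group 3, Itgax 10 in KO and 2 in WT group 3, and Siglech 27 in KO and 26 in WT group 3, and 47 in KO and 2 in WT group 2. In group 3, Xcr1 had 12 counts in KO and 26 in WT, Flt3 20 in KO and 18 in WT, and Zbtb46 9 in KO and 6 in WT. These dendritic cell markers thus did not move alike. Macrophage markers summed to 94.6 CPM in KO group 3 and 60.2 CPM in WT group 3, and to 74.5 CPM in KO group 2 and 48.5 CPM in WT group 2 over 6 genes, and 1 of them, C1qb, was called higher in KO by edgeR and not by DESeq2. B cell markers summed to between 57.0 and 79.1 CPM over 6 genes, and thymic epithelium markers to between 26.4 and 32.5 CPM over 5 genes, of which 1 was measured. The 2 regulatory T cell markers summed to between 18.2 and 21.8 CPM, most of it Il2ra. Foxp3, the defining one, had 22 counts in KO group 3 and 54 in WT group 3, and 15 in KO group 2 and 25 in WT group 2. The part of stage and of other cells in the members' differences was not tested.

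Likeness of pattern was measured as the root mean square difference of centred log2 CPM over the 4 libraries, among 8593 named protein-coding genes with 10 CPM. Nearest to Zbtb7b were Adgrg3 (0.158), Gimap3 (0.188) and Gimap4 (0.213). Nearest to Cd4 were Banp (0.010), Rcbtb1 (0.015) and Sugt1 (0.018), and nearest to Cd8a Ube2z (0.018), Ppil1 (0.019) and Anp32e (0.020). These values describe 4 single libraries.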

How the data were processed

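Both kinds of deposited value were used: raw whole-number counts by Ensembl ID, and the RPKM that the authors derived for each library. The submitters' processing notes name TopHat2 2.0.12 and mm10. The counting software, annotation and strand setting are not given in the sources used here. The deposited RPKM and counts together implied a whole gene length within 0.01 bp for 100% of values above 0, and RPKM served for levels per length only. Of 35275 gene IDs, 34490 matched GENCODE M21 symbols, and the rest stayed in the totals.

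Counts were scaled with edgeR 4.0.16 (TMM; R 4.3.3), keeping genes with 2 CPM in at least 1 library. Folds between libraries are ratios of scaled counts with exact conditional binomial 95% intervals, and log2 folds carry a pseudocount of 0.5 CPM. Past 2-fold means that log2 fold, with an interval excluding 1. Intervals of ratios of ratios come from Poisson counts on the log scale, with 0.5 in place of a count of 0. All intervals cover counting error only. Shared effects were fitted with edgeR's quasi-likelihood test (1 residual degree of freedom, Benjamini-Hochberg adjustment over all genes, threshold 0.05), checked on simulated data. Standard errors are those implied by the F statistic. DESeq2 1.42.0 and limma 3.58.1 were alternatives. Changing the scaling, filter, pseudocount, fold limit or model, and leaving out each library, were the others. Ensembl IDs were matched to the members by symbol.

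Named genes were all 10 members, up to 4 genes of each list (called genes first, then the most abundant), 3 genes most like each of Zbtb7b, Cd4 and Cd8a, Uba3 and genes that overlap a member. The text prints part of them. Outside that rule, Tcf7, Lef1, Cbfb, Zbtb7a, Runx2, Lck, Cd3e, Gzmb, Crtam, Foxp3 and the dendritic and NK cell markers were named after their values were seen. The list of innate-like T cell markers is not reported here. The members and lists were chosen with earlier results of these data known.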

Additional observations from a re-analysis of the deposited data

Results flagged for a closer look

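Bcl11b had genotype ratios on opposite sides of 1, at 0.858 in group 3 and 1.11 in group 2, each with a counting interval that excludes 1, so that the group 3 ratio was 0.776 of the group 2 ratio. It was singled out because the single library of each sorted group moved the opposite way, and the difference was not tested over mice. For no other member were both genotype ratios on opposite sides of 1 with intervals that exclude it. The share of all genes that meet this rule was not computed. Bcl11b had 5899 to 7272 counts, so its intervals are narrow, and members with few counts can hardly meet the rule. Its 0.776 is short of a 1.5-fold difference of the genotype ratio, which 21.8% of all genes passed. KO group 2 and WT group 3, where Bcl11b was the higher of its pair, had 23925 and 23325 genes with a count, against 20521 in KO group 3 and 20440 in WT group 2, and the part of this in the difference was not tested.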

How the results depend on the processing

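No paired analysis was possible because each combination of genotype and sorted group holds 1 library, so that no replicate number could serve as a block; the model does hold each of sorted group and genotype fixed for the other. With DESeq2's size factors 1 member, Runx3, was past 2-fold between genotypes in group 3, against 0 with TMM. At 1.5-fold the counts were 1 between genotypes in group 3, 3 along the step in KO and 1 (Runx3) for the difference of the genotype ratio between sorted groups, against 0, 1 and 0 at 2-fold. Library totals and a pseudocount of 2 CPM changed no count of members past 2-fold. Of the 40 member folds, 12 moved beyond their counting interval with another scaling. These were every fold of Cd8a and Cd8b1, and for Cd4 and Bcl11b the genotype fold in group 3 and the step in KO. With DESeq2's size factors 4 of the 40 changed sign, all near 0 on the log2 scale: Runx1 (0.011) and Patz1 (0.046) between genotypes in group 3, the step of Tox in KO (0.022) and that of Runx3 in WT (-0.016). Of the 2 members called along the step, edgeR's own filter, robust shrinkage and DESeq2 each left 1 (Zbtb7b) and a model without genotype 0; leaving out any 1 library in that smaller model gave 0 to 0. Counts for genotype were 0 in every fit run, 0 to 0 with 1 library left out. Without 1 library and without the other term, fitted genotype effects (log2) ranged for Cd8b1 between -0.57 and 0.038, for Zbtb7b between -0.80 and 1.57, for Bcl11b between -0.31 and 0.25, for Runx3 between 0.31 and 1.01, for Cd8a between -0.40 and -0.050 and for Cd4 between -0.31 and -0.072, and the fitted step of Runx3 between -0.14 and 0.85, the lowest without KO group 3. A lone library there mixes genotype with sorted group. RPKM in place of counts must give the same 5 ratio changes past 1.5-fold, since gene length and library total cancel in them. It was therefore no check of these ratios. With 49 to 197 counts for Zbtb7b and 155 to 361 for Runx3, depth limits these 2 genes most.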
